A study of Mus musculus with 7 samples.

Results

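Zinc, copper and iron handling genes were a chosen set of transporters, metal-binding proteins and metal reductases of these metals. Others that the series measured, such as Steap1, Steap2 and Slc25a37, were not members. The members were 39 of the 24421 rows of the count table, taken by symbol and not by their values: the zinc exporters of the Slc30a family, the zinc importers of the Slc39a family, Slc11a1 and Slc11a2, Slc31a1 and Slc31a2, Slc40a1, the metallothioneins Mt1, Mt2 and Mt3, the ferritin chains Fth1 and Ftl1, Tfrc, Steap3, Steap4, Atp7a and Atp7b. Messenger RNA had been read from the 3' ends of polyadenylated transcripts of sorted BALB/c stromal cells, in 3 libraries labelled pCAF and 4 labelled NMF. The pCAF group held cancer-associated fibroblasts from tumors of 1 cm, grown in the mammary fat pad of females aged 8 weeks from 100000 injected cells of 4T1-luc, a mouse mammary carcinoma line that carries luciferase. These cells were sorted as Ter119-, CD45- and EpCAM- and positive for podoplanin (PDPN), a fibroblast and lymphatic surface protein. The NMF group held Ter119-, CD45- and EpCAM- cells of the fat pad of untreated mice aged 12 weeks, with no selection on PDPN, so it could hold stromal cells other than fibroblasts. The labels gave PDPN- for the selection of pCAF replicate 3 although its title and source name placed it among PDPN+ cells, and the design text describes the mice as matched in age, unlike these labels. The collagenase mixture used for tumors was not the one used for fat pads. The titles call every library a biological replicate without naming the animal or pool behind it, and the p-values measure the variation among these libraries.

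Cells take up zinc into the cytosol through SLC39 (ZIP) proteins and move it out, or into vesicles, through SLC30 (ZnT) proteins, while metallothioneins bind zinc and copper in the cytosol. The zinc-sensing factor MTF1 switches on metallothionein genes and the exporter gene Slc30a1 through metal response elements in their promoters. Iron enters on transferrin through the transferrin receptor (Tfrc), is reduced in endosomes by STEAP proteins, crosses the membrane through DMT1 (Slc11a2), is stored in ferritin (Fth1, Ftl1) and leaves through ferroportin (Slc40a1). Iron regulatory proteins bind hairpins called iron responsive elements, which holds back translation of ferritin and ferroportin messages and protects the Tfrc message from decay. Copper enters through CTR1 (Slc31a1) and is passed by ATP7A into the secretory pathway, where enzymes such as lysyl oxidases take it up.

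The regulatory sequences of the genes with the clearest roles are shown first. The iron responsive element was searched in GENCODE M21 transcripts (mm10) on the transcript strand as a bulged C, 5 bases of any kind and the loop CAGTGN, with the loop not ending in G and with the 5 bases on its left able to pair with the 5 on its right. A match in an untranslated region was found for 4 of 39 members (10.3%) and for 133 of 22500 protein-coding genes (0.591%). All 5 pairs were required, so an element with an unpaired or extra base there would be missed. A member without a match may therefore still carry one. The 30 bases around each match are given 5' to 3' with the loop in capitals, from the 5' untranslated regions of Fth1 (chr19:9982732-9982761, plus strand), Ftl1 (chr7:45459778-45459807, minus strand) and Slc40a1 (chr1:45925464-45925493, minus strand) and from the 3' untranslated region of Tfrc, which held 4 matches (chr16:32631219-32631248, chr16:32631598-32631627, chr16:32631663-32631692 and chr16:32631710-32631739, plus strand).
Fth1: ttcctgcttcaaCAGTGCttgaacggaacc
Ftl1: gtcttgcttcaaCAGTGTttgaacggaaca
Slc40a1: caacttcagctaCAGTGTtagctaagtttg
Tfrc, the first: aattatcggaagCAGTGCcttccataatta
Tfrc, the second: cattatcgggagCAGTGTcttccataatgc
Tfrc, the third: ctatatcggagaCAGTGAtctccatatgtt
Tfrc, the fourth: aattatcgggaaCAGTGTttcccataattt

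The promoters of Mt1, Mt2 and Slc30a1 are shown because these genes are textbook targets of the same zinc sensor and moved in opposite directions in these data. The core of the metal response element was searched as TGCACNC or TGCGCNC on both strands, with overlapping matches kept, in RefSeq promoters of build GRCm38.p6 that run from 250 bases before a gene's start to 50 after it. Of the members, 33 had a promoter in that table. At least 3 matches were found in 2.27% of the promoter table's 27025 genes and at least 2 in 8.07% (the promoter with most matches counted for each gene). Mt1 (chr8:94178839-94179138, plus strand) held 3 matches, Mt2 (chr8:94172368-94172667, plus strand) 4 and Slc30a1 (chr1:191906531-191906830, plus strand) 2, printed 5' to 3' with the matches in capitals. Among the members at least 3 were found in 4 of 33 (12.1%) and at least 2 in 8 (24.2%). A match describes letters and not a bound site.
Mt1: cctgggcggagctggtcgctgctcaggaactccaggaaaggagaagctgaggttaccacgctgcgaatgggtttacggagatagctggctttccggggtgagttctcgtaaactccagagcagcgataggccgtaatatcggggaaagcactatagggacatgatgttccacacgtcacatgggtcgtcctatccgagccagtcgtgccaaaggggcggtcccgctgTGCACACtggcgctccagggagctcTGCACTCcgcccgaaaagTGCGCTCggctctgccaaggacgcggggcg
Mt2: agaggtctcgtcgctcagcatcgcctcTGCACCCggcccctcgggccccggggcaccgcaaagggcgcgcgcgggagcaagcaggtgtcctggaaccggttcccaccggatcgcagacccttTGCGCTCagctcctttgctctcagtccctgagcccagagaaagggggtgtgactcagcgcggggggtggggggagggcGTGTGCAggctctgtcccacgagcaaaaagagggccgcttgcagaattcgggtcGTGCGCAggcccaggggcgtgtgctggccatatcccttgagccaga
Slc30a1: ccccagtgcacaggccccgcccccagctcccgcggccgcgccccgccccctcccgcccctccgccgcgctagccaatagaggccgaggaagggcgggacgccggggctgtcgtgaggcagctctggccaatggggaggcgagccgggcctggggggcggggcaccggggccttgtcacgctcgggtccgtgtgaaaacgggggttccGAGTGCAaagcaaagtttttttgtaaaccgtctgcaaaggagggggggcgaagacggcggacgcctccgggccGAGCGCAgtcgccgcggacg

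Total counts ran from 1885039 to 4990070 per library. A library of each group was unlike the others, pCAF replicate 1 and NMF replicate 4. In pCAF replicate 1, 11090 genes had counts, against 13409 and 13555 in replicates 2 and 3, although its total (2184389) was the largest of pCAF. NMF replicate 4 had counts for 13222 genes, and NMF replicates 1 to 3 for 14110 to 14353. Whether zeros and low values in pCAF replicate 1 come from this was not tested. The chi-square of the counts, divided by its degrees of freedom, was 3.215 between pCAF replicates 2 and 3 and at least 39.98 between either of them and replicate 1, and it was at most 10.06 among NMF replicates 1 to 3 and at least 35.6 between these and replicate 4. This measure grows with the number of counts, and NMF replicate 4 had the largest total (4990070, against 2223198 to 2714492 in NMF replicates 1 to 3). Summed fibroblast markers ran from 79933 to 89515 CPM (counts for each 1000000 of a library's TMM-scaled total) in pCAF and from 29776 to 52335 in NMF, and the collagen genes Col1a1, Col1a2 and Col3a1 held most of each pCAF sum. Of the 13 fibroblast markers 5 rose, 2 fell (Dpt 2.85-fold and Fbln1 2.59-fold) and 6 did not pass, among them Pdgfra and Dcn at log2 fold changes of 0.05 and -0.85. Pdpn, 11.1-fold higher, was among those that rose. Its product was the sort marker of pCAF only, so this rise cannot be read apart from the sort. All 18 blood endothelial markers fell in pCAF, with summed levels of 153 to 326 CPM against 4420.1 to 8248, and Sox17 was at 0 in pCAF. All 8 tested adipocyte markers, of 10, fell, with sums of 1.11 to 64.3 CPM against 2101 to 15988, and Plin1, Cidec, Lep, Pck1 and Cd36 were at 0 in pCAF. Fabp4 alone held most of each NMF sum (1577 to 15228 CPM), and Adipoq was at 16.0 to 38.2 CPM in NMF. Of 10 tested leukocyte markers 6 fell and none rose (47.7 to 101 against 55.5 to 361 CPM), with Ptprc and Adgre1 at 0 in pCAF. Of the 6 tested Schwann cell markers 5 fell and 1 rose (109 to 181 against 267 to 1022 CPM), and of 9 tested epithelial markers 3 fell (119 to 308 against 201 to 641 CPM). Of 10 pericyte and smooth muscle markers 4 fell and 2 rose (333 to 663 against 410.5 to 620 CPM). Those that fell were Rgs5 (at most 1.11 CPM in pCAF and at least 69.0 in NMF), Higd1b (at 0 in pCAF), Notch3 and Mcam. Des and Ndufa4l2 rose, at 98.0 to 220 and 72.1 to 227 CPM in pCAF, so the similar sums hide opposite changes. Of the 3 tested lymphatic markers 1 fell and 1 rose (23.3 to 46.8 against 32.4 to 78.8 CPM). Erythroid markers, with Hba-a1, Hba-a2, Hbb-bs and Hbb-bt at 0 in all libraries, reached 6.33 CPM at most. These markers move with the group in every comparison that follows, and their part in it was not tested. In such bulk samples fewer cells of a type and less RNA per cell cannot be told apart.

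Most of the tested zinc, copper and iron handling genes differed between the groups, in both directions, though fewer did under some settings. Of 39 members 28 passed the filter on low counts, and 17 of these differed at an adjusted p under 0.05 in edgeR's quasi-likelihood test, 60.7% against 28.4% of all 10535 tested genes. Those higher in pCAF were 11 (39.3% against 14.3% of all tested genes) and those lower were 6 (21.4% against 14.2%). In 17 of the 28 every library of 1 group lay beyond the other group, 10 with pCAF above and 7 with pCAF below NMF, while over all genes 40.4% did not overlap, 19.0% above and 21.4% below. Members that passed the filter only through the group where they were high could not enter as unchanged, so these shares are a description. The median log2 fold change of the tested members was 0.63, against -0.02 over all tested genes, and the median size of the change, sign aside, was 1.23 against 0.73. Slc39a14, Slc39a1 and Slc39a6, which import zinc, Mt1, Mt2 and Tfrc rose, while the zinc exporter Slc30a1, the zinc importer Slc39a3, the copper transporter relative Slc31a2, the iron reductases Steap3 and Steap4 and the phagosomal metal transporter Slc11a1 fell. Of the 11 members not tested, Atp7b, Slc30a8, Slc30a10 and Slc39a5 had no count in any library, and Mt3, Slc30a2, Slc30a3, Slc39a2, Slc39a4, Slc39a12 and Slc40a1 had at most 13 counts in a library. With the library totals as scaling 8 members were higher and 7 lower (53.6% of those tested, against 28.7% of all genes). The median over all genes then moved to -0.26 on the log2 scale, and 37.1% of all called genes were higher in pCAF against 50.2%. Without pCAF replicate 2, 7 members were higher and 6 lower (44.8% of those tested, against 21.4% of all genes), and without pCAF replicate 3, 7 were higher and 5 lower (41.4% against 20.8%). Without pCAF replicate 1 and NMF replicate 4 together, a pair picked with earlier results known, 14 were higher and 8 lower (75.9%), while the share over all genes rose to 52.7%.

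**Figure D1:**
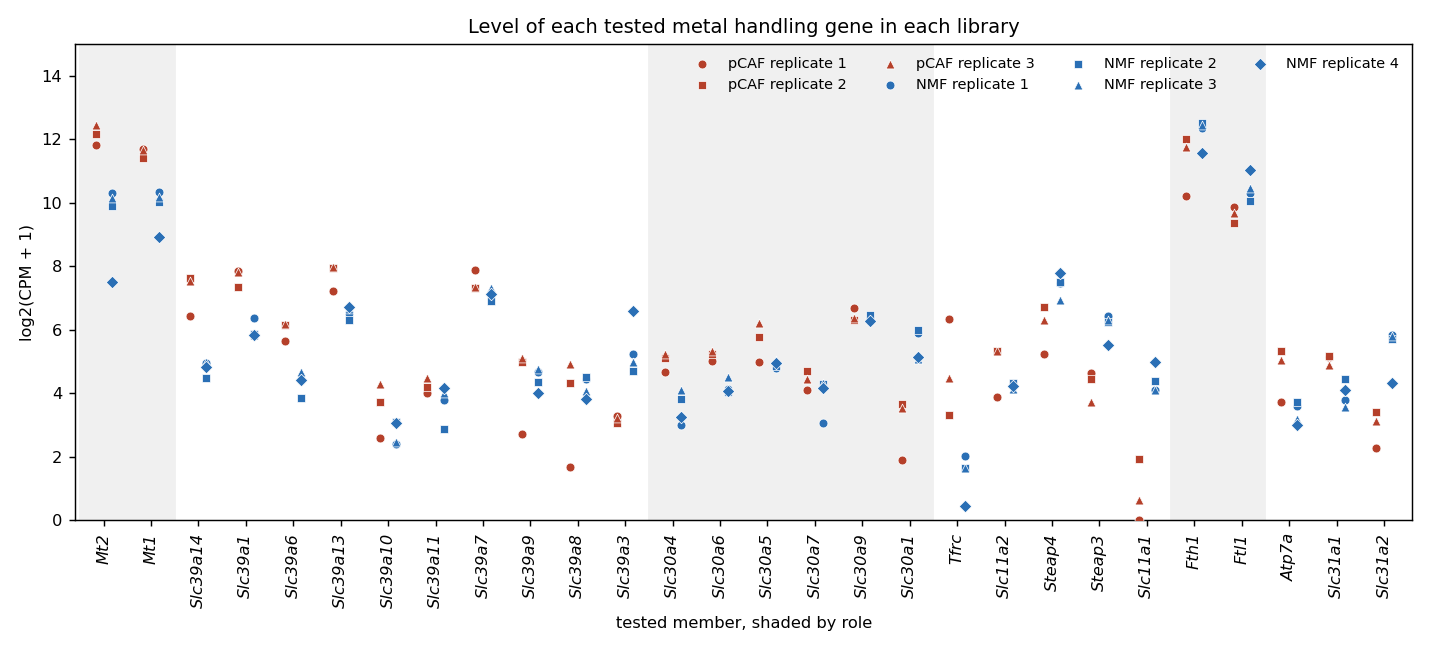
Level of each of the 28 tested members, as log2(CPM + 1) on the vertical axis, in each of the 3 pCAF (red) and 4 NMF (blue) libraries, with members along the horizontal axis and shading that alternates by role. Mt1, Mt2, Slc39a14 and Tfrc lie higher in every pCAF library than in every NMF library, and Slc30a1, Slc39a3 and Slc11a1 lie lower.

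**Figure D2:**
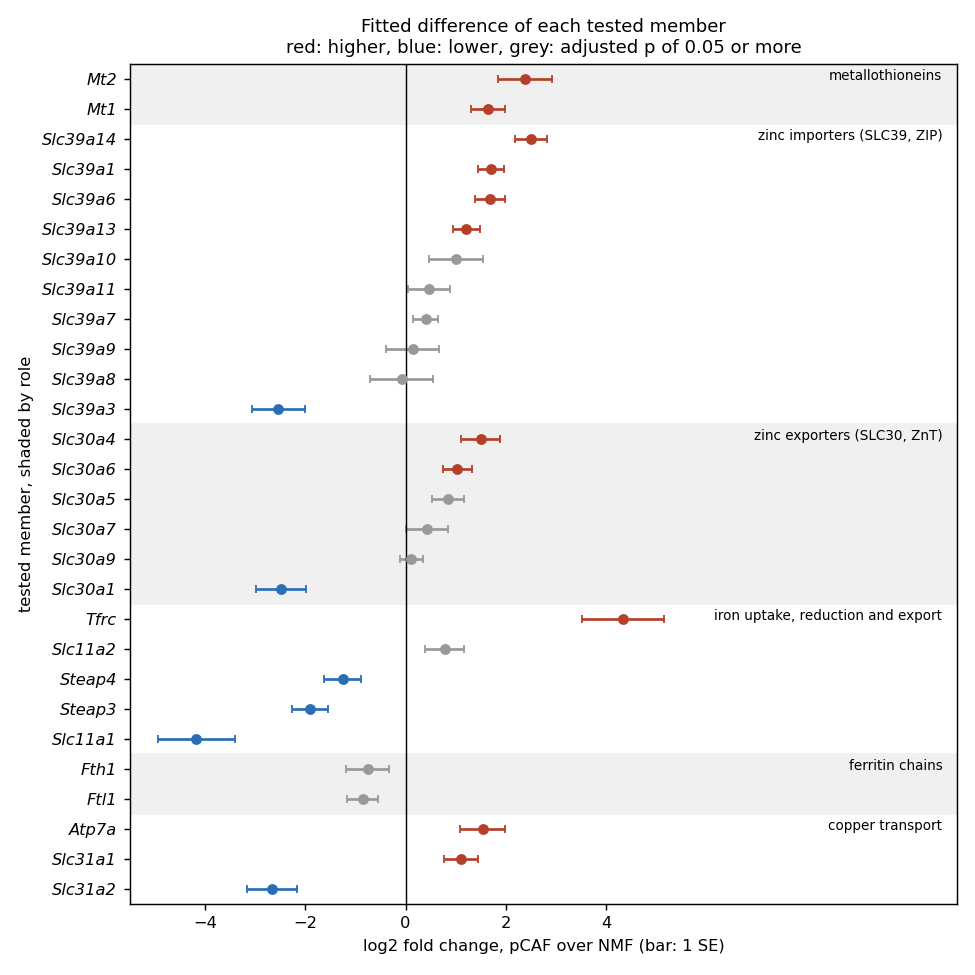
Fitted log2 fold change of pCAF over NMF on the horizontal axis, with bars of 1 SE, for the 28 tested members on the vertical axis, shaded by role. The 11 members called higher are red, the 6 called lower are blue and the 11 others are grey, and the range runs from -4.17 for Slc11a1 to 4.33 for Tfrc.

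Metallothioneins were higher in the tumor fibroblasts. Mt1 and Mt2 encode small cysteine-rich proteins that bind zinc and copper, and they lie side by side on chromosome 8 (mm10, 94179082 to 94180327 and 94172664 to 94173568, both on the plus strand). Mt1 was at 3348, 2748 and 3224 CPM in pCAF replicates 1 to 3 and at 1291, 1038, 1168 and 480.3 CPM in NMF replicates 1 to 4. Mt2 was at 3647, 4594 and 5533 CPM in pCAF and at 1255, 945, 1143 and 180.03 CPM in NMF. For both genes the pCAF libraries were all above the highest NMF library, and NMF replicate 4 was the lowest library for each. Of all tested genes 19.0% likewise had every pCAF library above NMF, and 14.3% were called higher. Mt1 rose 3.13-fold (log2 fold change 1.64, SE 0.34, adjusted p = 0.00558 in edgeR's test). Mt2 rose 5.22-fold (log2 fold change 2.38, SE 0.53, adjusted p = 0.00824). The share of all counts that the pair took was 0.577% to 0.831% in pCAF and 0.0709% to 0.275% in NMF. Mt3, the form known from the brain, had 7 counts over the NMF libraries and none in pCAF and was not tested. The 3' end of Mt2 overlaps a gene model on the other strand, and the strand setting of the counting was not given in the sources used here.

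**Figure D3:**
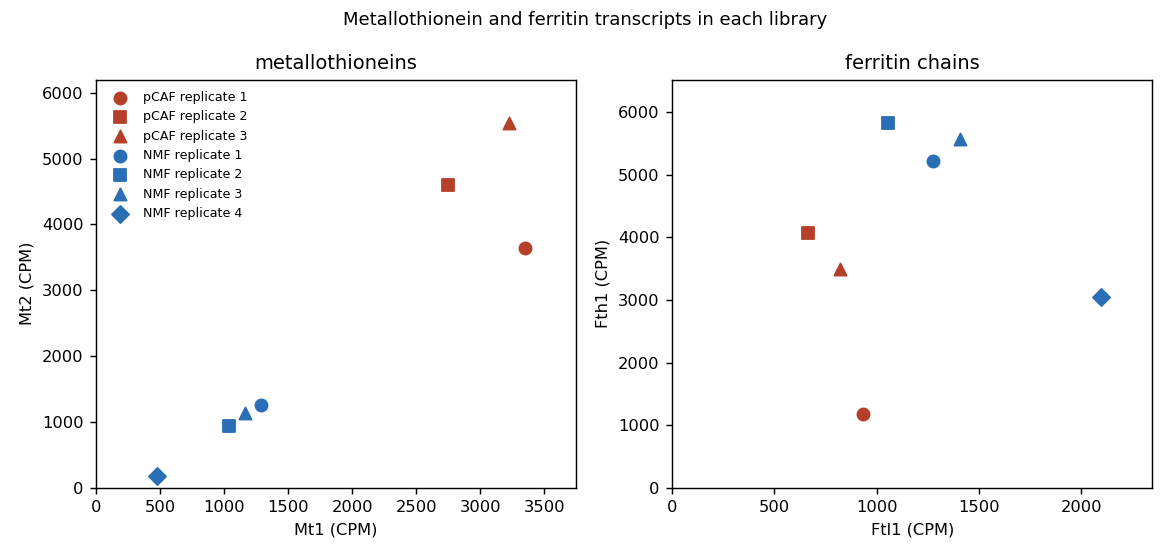
Mt1 against Mt2 (left) and Ftl1 against Fth1 (right), in CPM on linear axes, with a point for each of the 3 pCAF (red) and 4 NMF (blue) libraries. The pCAF libraries lie above all NMF libraries on both metallothionein axes, whereas Fth1 overlaps between the groups, with pCAF replicate 1 lowest at 1181 CPM.

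Of the 14 zinc importers 10 were tested, 4 rose, 1 fell and 5 did not pass. Over all tested genes 14.3% rose and 14.2% fell. Slc39a14 (ZIP14), which carries zinc, manganese and iron not bound to transferrin, had the smallest adjusted p among the members. It was at 85.4, 199 and 183 CPM in pCAF replicates 1 to 3 and at 30.1, 21.5, 30.98 and 27.3 CPM in NMF replicates 1 to 4, 5.66-fold higher (log2 fold change 2.50, SE 0.33, adjusted p = 4.68e-04 in edgeR's test). The lowest pCAF library, replicate 1, was still above the highest NMF library. Slc39a1 (ZIP1), an importer of the cell surface, was at 229, 161 and 227 CPM in pCAF and 82.7, 57.0, 56.3 and 55.8 CPM in NMF, a 3.26-fold rise (SE of the log2 fold change 0.26, adjusted p = 0.00105). Slc39a6 (ZIP6, or LIV-1), an importer first known as an estrogen-regulated gene, was at 48.8, 70.4 and 70.9 CPM in pCAF and 20.5, 13.5, 24.3 and 20.4 CPM in NMF, 3.21-fold higher (adjusted p = 0.00249). Slc39a13 (ZIP13), whose loss causes a connective tissue disorder, releases zinc from vesicles of the secretory pathway. Its level was 147, 246 and 253 CPM in pCAF and 91.2, 78.1, 98.9 and 103 CPM in NMF, a 2.31-fold rise (adjusted p = 0.00717), though its 3' end overlaps Psmc3 on the other strand, so its share of reads is uncertain. None of these 4 importers overlapped between the groups, and 19.0% of all tested genes likewise had every pCAF library above NMF.

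Slc39a3 (ZIP3), also an importer of the cell surface, went the other way. It was at 8.87, 7.32 and 8.31 CPM in pCAF replicates 1 to 3 and at 37.1, 25.3, 30.98 and 95.8 CPM in NMF replicates 1 to 4, 5.81-fold lower in pCAF (log2 fold change -2.54, SE 0.53, adjusted p = 0.00554 in edgeR's test). NMF replicate 4 was far above its group, and without it Slc39a3 was 3.74-fold lower (adjusted p = 0.00473). Slc39a7 (ZIP7), which releases zinc from the endoplasmic reticulum, did not pass at 233, 159 and 162 CPM in pCAF and 141, 119.9, 159 and 138 CPM in NMF (adjusted p = 0.256), and another annotated gene shares its 3' end. Slc39a9 (ZIP9), at 5.55, 30.98 and 33.8 CPM in pCAF and 24.3, 19.4, 26.4 and 15.1 CPM in NMF, did not pass either (adjusted p = 0.872), and pCAF replicate 1 was its lowest library. Its 3' end overlaps Erh on the other strand. The same library held 2.22 CPM of Slc39a8 (ZIP8), a carrier of zinc and manganese, against 19.2 and 29.4 CPM in the other pCAF libraries and 13.1 to 22.0 CPM in NMF (adjusted p = 0.942). Slc39a10 and Slc39a11 had log2 fold changes of 1.00 and 0.47 (adjusted p = 0.194 and 0.436). Without pCAF replicate 1, Slc39a10 passed at an adjusted p of 0.0274, as it did without that library and NMF replicate 4 (0.00457).

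Of 10 zinc exporters 6 were tested, 2 rose, 1 fell and 3 did not pass, beside 14.3% and 14.2% of all tested genes. Slc30a1 (ZnT1), the zinc exporter of the cell surface, was at 2.77, 11.8 and 10.5 CPM in pCAF replicates 1 to 3 and at 58.3, 62.9, 32.7 and 34.4 CPM in NMF replicates 1 to 4. It was 5.58-fold lower in pCAF without overlap (log2 fold change -2.48, SE 0.50, adjusted p = 0.00472 in edgeR's test), in the opposite direction to Mt1 and Mt2, whose promoters are printed with its own above. An antisense gene model overlaps its 3' end. Slc30a4 (ZnT4), which loads zinc into vesicles and is mutated in lethal milk mice, was at 24.4, 33.8 and 36.6 CPM in pCAF and 6.95, 13.1, 16.2 and 8.59 CPM in NMF, 2.82-fold higher (adjusted p = 0.0160). Slc30a6 (ZnT6), a Golgi exporter that pairs with ZnT5, was at 31.6, 36.6 and 39.4 CPM in pCAF and 16.6, 15.6, 21.8 and 15.9 CPM in NMF, 2.05-fold higher (adjusted p = 0.0249), although 19 other genes carry a close match to its 3' end, so its share of reads is uncertain. For both of these vesicle exporters the lowest pCAF library was above the highest NMF library, as for 19.0% of all tested genes. The Slc30a4 call was lost without pCAF replicate 2 (0.0533) or 3 (0.0621) and with the replicate number as a block (0.0518). The Slc30a6 call was lost without pCAF replicate 2 (0.0777) or 3 (0.0925), without NMF replicate 1 (0.0696) or 2 (0.0765), with library totals (0.0743), with no filter (0.0578) and with the block (0.0983).

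The ZnT6 partner Slc30a5 (ZnT5) was at 30.5, 54.1 and 73.7 CPM in pCAF replicates 1 to 3 and 26.7, 28.3, 32.03 and 30.3 CPM in NMF replicates 1 to 4, with overlap, and did not pass (adjusted p = 0.0767 in edgeR's test). It passed without pCAF replicate 1 (0.00448) and without that library and NMF replicate 4 (3.38e-04). Slc30a9 (ZnT9), a mitochondrial exporter, was at 102, 78.9 and 81.5 CPM in pCAF and 81.9, 86.98, 79.2 and 75.8 CPM in NMF (log2 fold change 0.11, SE 0.23, adjusted p = 0.760). Its NMF range began below and its pCAF range ended above the other group. Slc30a7 (ZnT7), of the Golgi, had a log2 fold change of 0.43 (adjusted p = 0.475). Slc30a2 and Slc30a3, known from mammary epithelium and from neurons, had at most 2 counts in a library.

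Of the 6 genes of iron uptake, reduction and export 5 were tested, 1 rose, 3 fell and 1 did not pass. The shares over all tested genes were 14.3% higher and 14.2% lower. Tfrc (mm10 chromosome 16, 32608920 to 32632794, plus strand) was at 79.9, 9.01 and 21.6 CPM in pCAF replicates 1 to 3 and at 3.09, 2.11, 2.11 and 0.374 CPM in NMF replicates 1 to 4. All pCAF libraries lay above all NMF libraries, and pCAF replicate 1 held more than the other pCAF libraries together. Tfrc rose 20.1-fold, the widest rise among the tested members (log2 fold change 4.33, SE 0.82, adjusted p = 0.00343 in edgeR's test), and 8.35-fold without pCAF replicate 1 (adjusted p = 0.00718) or 6.14-fold without that library and NMF replicate 4 (2.62e-04). Steap3, the main ferric reductase of transferrin endosomes, was at 23.8, 20.8 and 12.2 CPM in pCAF and 85.7, 75.6, 79.2 and 45.4 CPM in NMF, 3.76-fold lower (log2 fold change -1.91, SE 0.36, adjusted p = 0.00312). Steap4, a reductase of iron and copper that is abundant in fat, was at 36.6, 105 and 78.7 CPM in pCAF and 176, 183, 121 and 219 CPM in NMF, 2.38-fold lower (adjusted p = 0.0295). Neither reductase overlapped between the groups, and 21.4% of all tested genes likewise had every pCAF library below NMF. The Steap4 call was lost without pCAF replicate 3 (0.0711), without NMF replicate 1 (0.0680), 2 (0.0693) or 4 (0.0606) and with the replicate block (0.0748).

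Slc11a2 (DMT1), which moves ferrous iron out of endosomes, was at 13.9, 39.4 and 39.4 CPM in pCAF replicates 1 to 3 and 18.5, 19.0, 16.5 and 17.7 CPM in NMF replicates 1 to 4. pCAF replicate 1 lay below all NMF libraries and the other pCAF libraries above them, and the gene did not pass (adjusted p = 0.163 in edgeR's test). A gene model on the other strand overlaps its 3' end. It passed without pCAF replicate 1 (0.00505) and without that library and NMF replicate 4 (8.47e-04). Slc11a1 (NRAMP1), a divalent metal transporter of the phagosomes of macrophages and neutrophils, was at 0, 2.82 and 0.554 CPM in pCAF and at 16.2, 19.8, 16.2 and 31.0 CPM in NMF. It fell 18.004-fold, the widest fall among the tested members (log2 fold change -4.17, SE 0.77, adjusted p = 0.00296), and 10.1-fold without pCAF replicate 1 and NMF replicate 4 (4.24e-05). The annotation holds 1 gene model that repeats its 3' end. With pCAF replicate 2 removed the pCAF group had a total of 1 count, and the NMF level was 82.4 times as high (exact 95% counting interval 14.7 to 3264, adjusted p = 0.00205). NMF replicate 4 was highest for Slc11a1 and, at 55.5 CPM, lowest of the NMF libraries for the summed leukocyte markers, a level between those of pCAF replicates 1 to 3. The cell source of the Slc11a1 counts was not tested. Slc40a1 (ferroportin), the iron exporter, had 13 counts over the pCAF libraries and 30 over the NMF libraries and was not tested.

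Neither ferritin chain passed, and both stood lower on average in pCAF. Fth1, the heavy chain that oxidises iron, was at 1181, 4076 and 3494 CPM in pCAF replicates 1 to 3 and 5228, 5821, 5566 and 3053 CPM in NMF replicates 1 to 4, with overlap (log2 fold change -0.75, SE 0.43, adjusted p = 0.217 in edgeR's test). The lowest library of each group was one of those that stood apart, and without both of them Fth1 was lower in pCAF (log2 fold change -0.56, adjusted p = 0.00942). Ftl1, the light chain, was at 934, 664 and 819 CPM in pCAF and 1273, 1057, 1407 and 2096 CPM in NMF, without overlap (log2 fold change -0.86, SE 0.30, adjusted p = 0.0587). Ftl1 passed with library totals (0.0192), upper quartile scaling (0.0430), DESeq2's test (0.0201), without pCAF replicate 1 (0.0294) and without both libraries that stood apart (0.00233). The last 300 bp of Ftl1 match 12 other annotated genes, among them the pseudogenes Ftl1-ps1, Ftl1-ps2 and Ftl2-ps, and those of Fth1 match 1, so their share of reads is uncertain. Fth1, Ftl1 and Tfrc carry the iron responsive elements printed above, and the table measures messenger RNA, not protein.

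Of 4 copper transport genes 3 were tested and all 3 passed, against 28.4% of all tested genes. Slc31a1 (CTR1), the high-affinity copper importer, was at 34.4, 34.9 and 28.8 CPM in pCAF replicates 1 to 3 and 12.7, 21.1, 10.9 and 16.1 CPM in NMF replicates 1 to 4, 2.15-fold higher without overlap (log2 fold change 1.10, SE 0.34, adjusted p = 0.0322 in edgeR's test). Atp7a, the copper pump of the trans-Golgi, was at 12.2, 39.4 and 32.1 CPM in pCAF and 11.2, 12.2, 8.10 and 7.10 CPM in NMF, 2.91-fold higher (log2 fold change 1.54, SE 0.45, adjusted p = 0.0281). pCAF replicate 1 lay within the NMF range of Atp7a. Slc31a2 (CTR2), a relative of CTR1 found on endosomes and lysosomes, was at 3.88, 9.58 and 7.76 CPM in pCAF and 56.0, 51.1, 55.3 and 18.9 CPM in NMF, 6.35-fold lower without overlap (log2 fold change -2.67, SE 0.50, adjusted p = 0.00323). The Slc31a1 call was lost without pCAF replicate 2 (0.0972) or 3 (0.0624), without NMF replicate 1 (0.0941) or 3 (0.0937), with library totals (0.0847), with no filter (0.0589) and with the replicate block (0.0812). The Atp7a call was lost without pCAF replicate 2 (0.130) or 3 (0.0872), without NMF replicate 1 (0.06100), 2 (0.0546), 3 (0.0759) or 4 (0.0559), with library totals (0.0606) and with the replicate block (0.139).

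**Figure D4:**
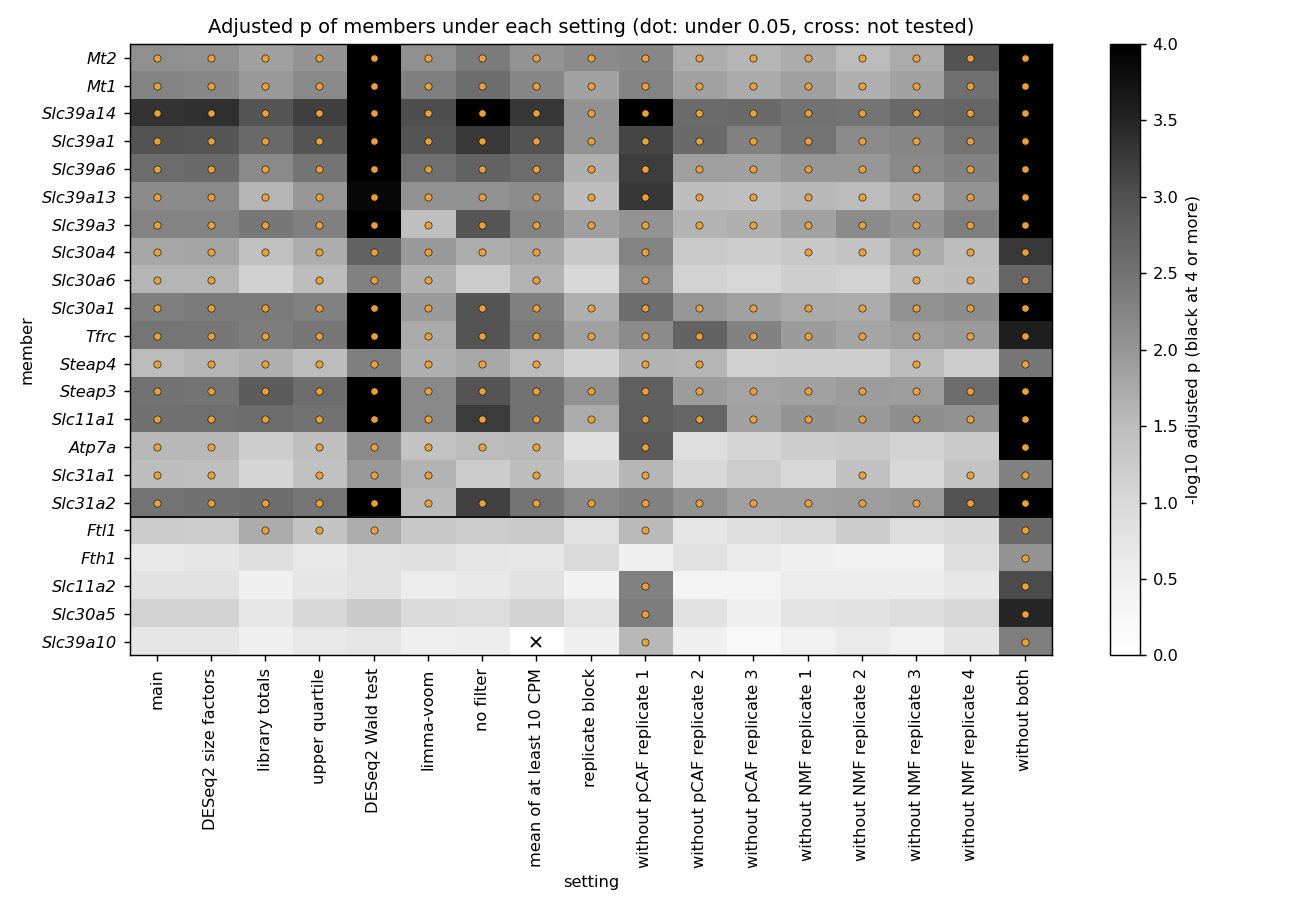
Adjusted p of each called member (above the line) and of 5 others that passed under some setting (below it), under each setting on the horizontal axis, shaded from white to black as -log10 dotted where under 0.05 and crossed where not tested. The last column leaves out pCAF replicate 1 and NMF replicate 4. Mt1, Mt2, Slc39a14, Slc39a1, Slc39a6, Slc39a13, Slc39a3, Slc30a1, Tfrc, Steap3, Slc11a1 and Slc31a2 have a dot in every column, while Atp7a, Slc31a1, Slc30a6, Slc30a4 and Steap4 lose it in several.

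Other genes of iron handling were compared from lists. Of 15 tested genes for iron sensing, the hepcidin axis and ferritin turnover (of 21 in the table) 4 rose and none fell (median log2 fold change 0.42), beside 14.3% and 14.2% of all tested genes. Ireb2, which encodes iron regulatory protein IRP2, was at 82.6, 39.4 and 52.1 CPM in pCAF and 5.79, 11.8, 7.04 and 5.98 CPM in NMF, 7.63-fold higher (log2 fold change 2.93, SE 0.39, adjusted p = 5.11e-04 in edgeR's test). Its libraries did not overlap between groups, and pCAF replicate 1, which stood apart from its group, was highest. Aco1, the other iron regulatory protein (IRP1), did not pass (log2 fold change 0.42, SE 0.27, adjusted p = 0.275), nor did Fbxl5, which marks IRP2 for degradation, or Ncoa4, which carries ferritin to lysosomes (0.0828 and 0.360). These 3 genes were named after their values were seen. The metalloreductase relatives Steap1 and Steap2 rose 14.8-fold and 18.9-fold (adjusted p = 0.00642 and 0.00429), opposite to Steap3 and Steap4. Without NMF replicate 3 Steap1 was 55.3-fold higher. For Steap2, which had 5 NMF counts, pCAF held 30.7 times the NMF level without NMF replicate 1 (95% counting interval 9.89 to 154), 30.1 times without NMF replicate 3 (9.69 to 151) and 9.67 times by the fit without pCAF replicate 1 and NMF replicate 4. Tfr2, a second transferrin receptor known from liver, rose 3.39-fold (adjusted p = 0.0391). That call was lost without pCAF replicate 1 (0.0617), 2 (0.110) or 3 (0.126), without NMF replicate 1 (0.0971), 2 (0.0898) or 3 (0.0730), with library totals (0.0698), no filter (0.116) and the block (0.153). Trf, transferrin itself, and Pcbp1, an iron chaperone, did not pass (adjusted p = 0.0670 and 0.793). Trf, at 53.9 ± 6.02 CPM (SD, n = 3) against 98.5 ± 35.2 (SD, n = 4), passed as lower in pCAF with library totals (0.0316) and with DESeq2's test (0.0398).

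In the list of heme and mitochondrial iron genes 3 of 21 rose (14.3%, the same as over all tested genes) and 2 fell (9.52% against 14.2%), with a median log2 fold change of -0.00481. Slc25a37 (mitoferrin 1), which carries iron into mitochondria, rose 5.14-fold, from 7.62 ± 2.06 CPM (SD, n = 4) to 39.5 ± 26.8 (SD, n = 3; adjusted p = 0.00479 in edgeR's test), and 3.15-fold without pCAF replicate 1 or 3.27-fold without that library and NMF replicate 4. Blvrb, biliverdin reductase B, fell 4.60-fold, from 175 ± 12.6 to 37.9 ± 8.97 CPM (adjusted p = 3.06e-04). Hmox2, the constitutive heme oxygenase, fell 2.06-fold (adjusted p = 0.0286), a call lost without pCAF replicate 3 (0.0625), without NMF replicate 1 (0.0736), 2 (0.0704) or 3 (0.0721) and with the replicate block (0.0525). Glrx5 and Fech, of iron-sulfur and heme assembly, were at log2 fold changes of -0.00481 and -0.19 (adjusted p = 0.990 and 0.630).

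Among copper chaperones and copper enzymes 5 of 19 tested genes rose (26.3% against 14.3% of all tested genes) and none fell (median log2 fold change 0.26). The lysyl oxidase genes, whose products use copper to crosslink collagen, gave 3 of these. Lox was at 1066, 965 and 971 CPM in pCAF and 30.5, 47.7, 60.9 and 81.4 CPM in NMF, 18.1-fold higher without overlap (adjusted p = 4.68e-05). Loxl2 rose 3.29-fold and Loxl3 6.94-fold (adjusted p = 0.00218 and 0.00157 in edgeR's test), and Loxl3 was 3.94-fold higher without pCAF replicate 1 and 3.88-fold without that library and NMF replicate 4. Loxl1 did not pass, at 595 ± 55.5 CPM (SD, n = 3) against 486 ± 178 (SD, n = 4; adjusted p = 0.518). Cox17, the chaperone that delivers copper to cytochrome oxidase, rose 2.39-fold (adjusted p = 0.0121), a call that the replicate block (0.0658) or leaving out NMF replicate 1 (0.0508) ended. Sod1, the cytosolic copper and zinc superoxide dismutase, did not pass (562 ± 25.4 against 665 ± 86.5 CPM, adjusted p = 0.488).

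Of 11 tested metal and stress response regulators 2 rose (18.2% against 14.3% of all tested genes) and 5 fell (45.5% against 14.2%; median log2 fold change -1.13). Mtf1, the zinc sensor, named after its values were seen, was at 0, 5.63 and 7.21 CPM in pCAF and 10.8, 10.6, 9.86 and 6.54 CPM in NMF and did not pass (adjusted p = 0.328 in edgeR's test). Its groups overlapped. Hif1a, the oxygen-regulated subunit whose targets include Tfrc, rose 9.85-fold, from 20.2 ± 6.71 CPM (SD, n = 4) to 201 ± 23.8 (SD, n = 3; adjusted p = 7.43e-05), and its relative Epas1, which is abundant in endothelium, fell 9.23-fold, from 598 ± 113 to 64.7 ± 27.9 CPM (adjusted p = 2.98e-04). Nr3c1, the glucocorticoid receptor, through which glucocorticoids induce metallothioneins, fell 4.81-fold (adjusted p = 5.44e-04), and the interleukin 6 receptor Il6ra fell 18.7-fold (adjusted p = 0.00145), or 11.2-fold without pCAF replicate 1 and NMF replicate 4. Nfe2l2 (NRF2) and Stat3 did not pass (adjusted p = 0.424 and 0.960). Of 8 glucocorticoid-induced genes 4 fell (against 14.2% of all tested genes) and none rose (median log2 fold change -0.97). Whether glucocorticoids had a part in the levels of Mt1 and Mt2 was not tested. Tsc22d3 (GILZ) fell 12.0-fold, Per1 3.08-fold and Klf9 2.64-fold (adjusted p = 2.50e-04, 0.00492 and 0.0174). Pdk4 kept 3 counts in pCAF, its NMF level being 20.7 times as high (exact 95% counting interval 6.96 to 102, adjusted p = 0.00409), or 41.2 times (7.28 to 1637) once pCAF replicate 3 was removed. Dusp1 and Zfp36, also early stress genes, did not pass (adjusted p = 0.920 and 0.846).

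**Figure D5:**
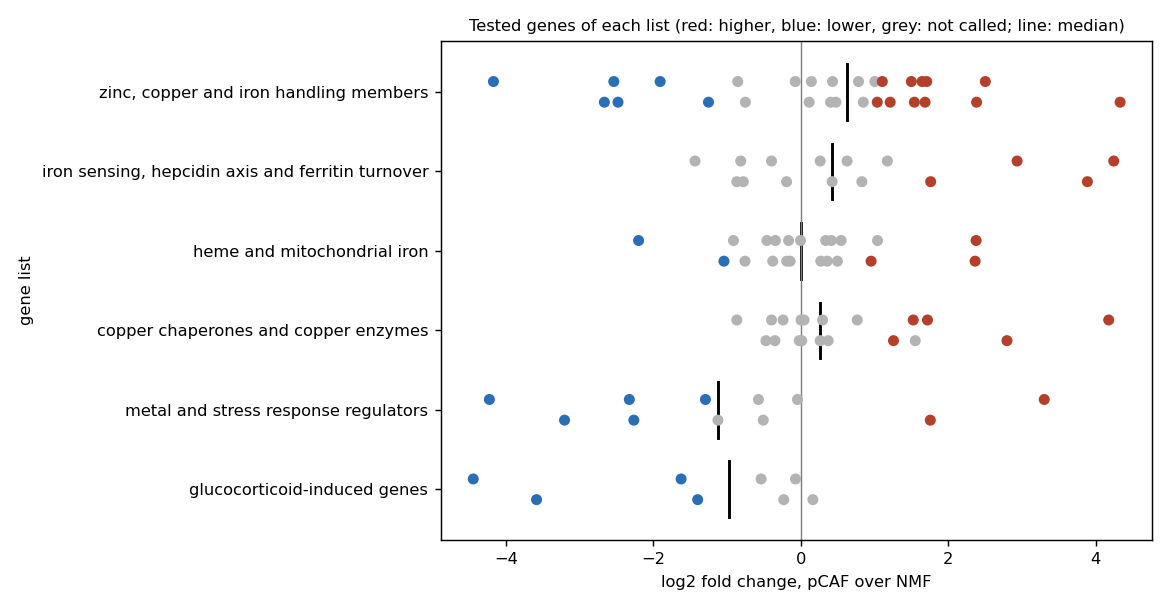
Log2 fold change of pCAF over NMF on the horizontal axis for each tested gene of the members and of 5 lists on the vertical axis, red where higher, blue where lower and grey where not called, with a black line at each median. The members' median is 0.63, and those of the regulators and the glucocorticoid-induced genes are -1.13 and -0.97.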

How the data were processed

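The 7 libraries were read from 1 table of raw counts that the authors deposited, with 24421 gene rows, 7867 of them at 0 throughout. The submitters' processing notes list mm10, HTSeq, STAR 2.4.2a and bcl2fastq without their roles. Annotation, strand, molecular identifiers and filters are not given in the sources used here. Groups came from titles.

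Genes that passed filterByExpr of edgeR 4.0.16 (R 4.3.3) were tested, with TMM scaling. Groups were compared by the robust quasi-likelihood F test, two-sided, Benjamini-Hochberg adjusted over 10535 genes, threshold 0.05. CPM use the TMM-scaled totals. Counting intervals are exact (95%) and cover counting error only. Alternatives were 3 other scalings, DESeq2 1.42.0, limma-voom (limma 3.58.1), 2 filters, the replicate block and left-out libraries. Methods were tested on simulated data.

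Members, lists, tests and the pair of libraries left out together were chosen with earlier results of these data known. Named were all members, and of each metal list up to 4 called genes by adjusted p and up to 2 others by level. A gene that this rule names is not reported here. Members called or with a mean of at least 20 CPM are given in every library. Same-numbered libraries did not pair: their deviations from group means correlated at -0.09, 0.08 and -0.01. Near-identical 3' ends were sought with blastn 2.17.0 in the last 300 bp (at least 80 bp at 95% identity), and overlaps with exons of other genes in the last 1000 bp, by GENCODE M21. Python 3.11.15, pandas 2.3.3 and matplotlib 3.10.9 made tables and figures.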

Additional observations from a re-analysis of the deposited data

Results flagged for a closer look

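In the NMF group, 4 of 28 tested members had a library far from the other 3 (its gap to the nearest, divided by the range, above Dixon's 95% critical value, which chance gives in about 1 of 20 groups). Slc31a2 was at 18.9 CPM in NMF replicate 4, below the others, and Slc39a3 was at 95.8 CPM in that library, above them. Slc39a1 was at 82.7 CPM in NMF replicate 1 and Slc30a6 at 21.8 CPM in NMF replicate 3, each the highest of its group. Groups of 3 were not tested.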

How the results depend on the processing

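Of the 17 calls, 17 were kept with DESeq2 size factors, upper quartile scaling, DESeq2's test, limma-voom and a mean of at least 10 CPM, 15 with no filter, 14 with library totals and 12 with the replicate block. With the replicate block 7 members were higher and 5 lower (42.9% of those tested, against 19% of all genes). Correlations did not pair the libraries, and the block gives NMF replicate 4 a term of its own, which leaves fewer samples. Leaving out each library in turn gave 7 to 14 members higher, 5 to 7 lower, and 1995 to 4208 genes called over all genes, against 2994. Without pCAF replicate 1 and NMF replicate 4 together 5715 genes were called. No called member changed direction under any of the 16 settings. Uncalled genes with small differences did (log2 fold change), and the cause was not tested. With library totals Slc30a9 was at -0.14, Slc39a9 at -0.0522 and Zfp36 at -0.0907; with limma-voom Slc39a9 was at -0.16 and Dusp1 at 0.10; with the replicate block Slc39a9 was at -0.24 and Zfp36 at -0.19. Without both libraries that stood apart Slc30a9 was at -0.0527, Slc39a8 at 0.31, Nfe2l2 at 0.12, Pcbp1 at 0.24, Stat3 at 0.17 and Zfp36 at -0.40. Over single libraries left out, the ranges were -0.0175 to 0.18 for Slc30a9, -0.73 to 0.44 for Slc39a8, -0.21 to 0.61 for Slc39a9, -0.35 to 0.0935 for Dusp1, -0.12 to 0.12 for Glrx5, -0.49 to 0.25 for Pcbp1, -0.40 to 0.41 for Stat3 and -0.14 to 0.38 for Zfp36. Depth limits the 7 untested members with counts, none above 13 in a library.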

Other observations

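Within each library, the count of Mt2 over that of Mt1 in pCAF replicates 1 to 3 was 1.09, 1.67 and 1.72. In NMF replicates 1 to 4 it was 0.972, 0.911, 0.979 and 0.375, so all pCAF libraries lay above all NMF libraries. The count of Fth1 over that of Ftl1 was 1.26, 6.14 and 4.27 in pCAF and 4.11, 5.51, 3.96 and 1.46 in NMF. Both libraries that stood apart, 1 of each group, had the lowest of these ferritin ratios in their group. The ratios compare libraries and not the levels of 2 genes, and no test was made of them.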
